A study of Mus musculus with 24 samples.

Results

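CpG island fragments at transcription starts were the 6821 fragments, of 65535 in the table, that lay in the core of a CpG island and whose end on the gene side was at most 1000 bp from the start of the gene they were named for. They belonged to 1109 genes and 1100 islands on chromosomes 1, 2 and 3 of the mouse genome (GRCm38), and no methylation value was used to choose them. RRBS (reduced representation bisulfite sequencing) cuts DNA with MspI at CCGG and counts, at the CpGs of each fragment, the calls in which the cytosine was protected by methylation and those in which it was converted. It was run on brown adipose tissue (BAT) of female C57BL/6J mice at postnatal day 12, in 12 DDT and 12 VEH libraries. The DDT mice came from dams gavaged during gestation and early lactation with p,p'-DDT together with its o,p' isomer, and the VEH mice from dams gavaged with olive oil. Each library pooled BAT from littermates, so the replicate was the litter. These are DNA libraries of whole tissue, and the labelled tissue could not be checked against the expression of BAT genes.

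CpG islands are stretches rich in CpG that hold most mammalian gene starts, and they are usually free of methylation whether or not the gene is active. Well known exceptions are the islands of germ cell genes, which are methylated and silent in somatic tissue, and those of imprinted genes, where the copy from 1 parent is methylated. Most other CpGs of the genome are methylated, so an island fragment with a high level is unusual for its class.

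The reference sequences of the fragments that the results turn on are given here from the RefSeq assembly of GRCm38, on the plus strand from 5′ to 3′, with each CpG in capitals. The first 5 are highly or partly methylated fragments outside exons at germ cell genes, an imprinted gene and a microRNA, shown for the number and spacing of their CpGs. Reads did not span the longer fragments, so CpGs in the middle of those carried no calls.
Mael, chr1:166238773-166238944: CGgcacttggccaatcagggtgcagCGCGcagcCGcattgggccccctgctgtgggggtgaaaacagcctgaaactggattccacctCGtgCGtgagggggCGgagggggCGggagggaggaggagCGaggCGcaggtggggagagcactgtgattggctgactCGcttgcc
Boll, chr1:55362929-55363014: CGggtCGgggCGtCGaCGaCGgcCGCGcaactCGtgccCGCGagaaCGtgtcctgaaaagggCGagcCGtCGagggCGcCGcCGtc
Rbm46, chr3:82876160-82876224: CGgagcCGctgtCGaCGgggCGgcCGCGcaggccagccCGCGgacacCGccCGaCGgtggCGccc
Mcts2, chr2:152686854-152686978: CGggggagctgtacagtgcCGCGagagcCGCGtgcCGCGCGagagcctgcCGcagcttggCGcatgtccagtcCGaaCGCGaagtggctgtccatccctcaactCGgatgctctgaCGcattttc
Mir219-2, chr2:29846266-29846323: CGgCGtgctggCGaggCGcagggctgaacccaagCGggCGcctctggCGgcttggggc
The next 4 are a pair from the island of Fnbp1l and a pair from that of Elf2, shown because the levels within a pair were unlike and the fragment with fewer CpGs had the higher one.
Fnbp1l, chr3:122619721-122619762: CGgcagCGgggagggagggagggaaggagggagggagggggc
Fnbp1l, chr3:122619763-122619852: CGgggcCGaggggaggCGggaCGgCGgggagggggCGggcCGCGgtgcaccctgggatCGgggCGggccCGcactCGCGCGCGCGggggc
Elf2, chr3:51341158-51341251: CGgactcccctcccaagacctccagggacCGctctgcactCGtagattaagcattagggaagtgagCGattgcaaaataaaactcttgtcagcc
Elf2, chr3:51340669-51340755: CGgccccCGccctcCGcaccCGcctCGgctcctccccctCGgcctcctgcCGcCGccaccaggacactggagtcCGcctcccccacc
The last 2 are the intergenic fragments among the 10 with the smallest p for DDT against VEH.
Gm9884, chr1:25829894-25829949: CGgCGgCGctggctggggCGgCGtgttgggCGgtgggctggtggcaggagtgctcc
Ncoa2, chr1:13374242-13374280: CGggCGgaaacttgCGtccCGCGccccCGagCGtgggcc

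The methylation level is the percent of calls that were methylated, taken from libraries with 10 or more calls for the fragment. Tests were limited to fragments with a level in 8 or more VEH and 8 or more DDT libraries, which left 5375 of the 6821 island fragments, at 1049 genes, and 20225 fragments of the whole table. Libraries held 8371958 to 14124652 CpG calls, of which 33.3% to 46.4% fell in the island fragments at starts. The median number of calls per tested fragment ran from 282 to 632 by library. Calls come from PCR-amplified reads without molecular identifiers, so calls are not independent counts of molecules. Intervals and counts leave out other sources of error.

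DDT replicate 4 stood apart from the other 23 libraries. Over the 3918 island fragments with a level in all 24 libraries, its median level was 0.0450%, compared with 2.82% to 3.73% in the others. It had no methylated call at 44.7% of these fragments, where the others ran from 1.35% to 7.84%. At the same time 86 of them were at 50% or more in DDT replicate 4, compared with 7 to 16 in the 22 libraries other than DDT replicates 3 and 4, and 57 in DDT replicate 3. Levels in DDT replicate 4 were thus close to all or none, with a mean of 4.34% that did not stand apart. At Nnat it was at 1.29% on 309 calls where the VEH libraries ran from 71.1% to 82.2%, and at Cyp20a1 it was at 84.4% on 3651 calls where they ran from 7.66% to 14.1%. It covered the fewest island fragments with at least 10 calls, 4713, whereas DDT replicate 12 covered the most, 6231. The main counts and differences are given with and without DDT replicate 4, and some others with all libraries only.

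**Figure D1:**
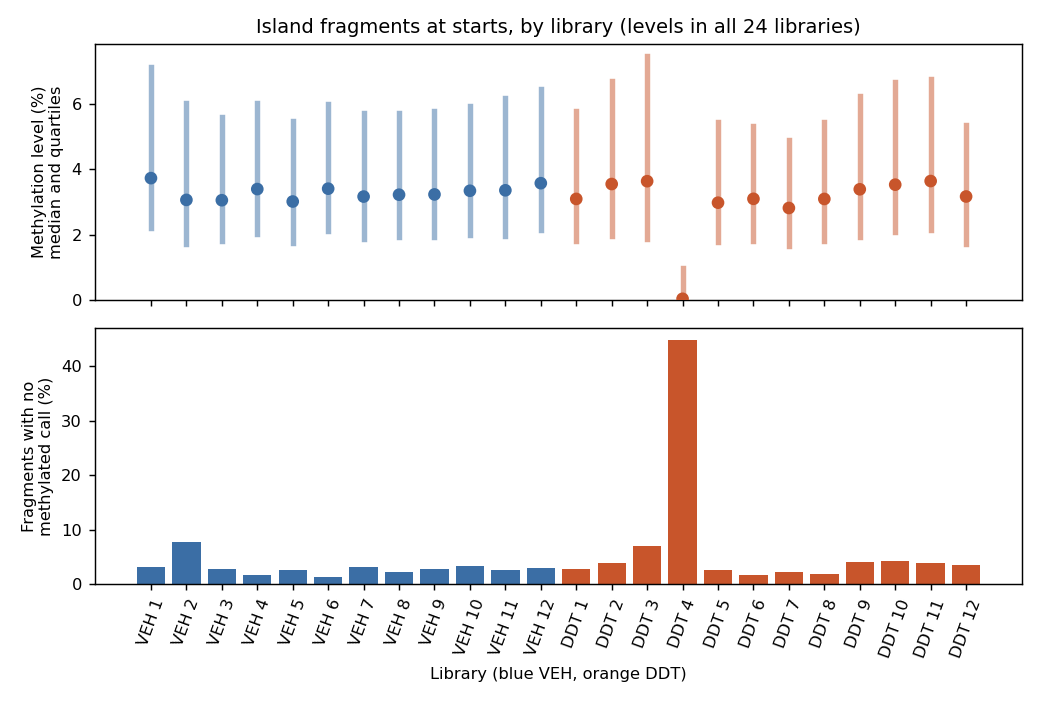
Methylation levels of the 3918 island fragments at starts with a level in all 24 libraries, by library, VEH in blue and DDT in orange. Upper panel, median (point) and quartiles (bar) in percent. Lower panel, percent of fragments with no methylated call. DDT replicate 4 has a median of 0.0450% and 44.7% of fragments at 0.

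Most island fragments at starts were close to unmethylated in infant BAT. The median VEH level over the 5375 tested fragments was 3.66%, the quartiles were 2.23% and 6.70%, and 4613 fragments, or 85.8%, were under 10%. Only 95 fragments, at 72 genes, reached 20%, and 22 fragments, at 11 genes, reached 40%. Summed over the fragments of a gene, 848 of 1059 promoters were under 5% and 12 reached 20%. The median SD over VEH libraries was 1.39 percentage points per fragment, at levels that were themselves near 0. By depth it ran from 0.548 at over 1000 calls to 6.25 at up to 50.

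The level varied with the base composition and length of the fragment and little with its distance from the start. Across the 5375 fragments, the VEH level had a Spearman correlation of -0.43 with CpGs per 100 bp, -0.36 with GC percent, -0.39 with the number of calls, 0.21 with length and -0.03 with the signed distance from the start. These are descriptions over fragments that share libraries, depth and base composition. The median VEH level was 11.6% in the 116 fragments with at most 4 CpGs per 100 bp and 1.99% in the 244 with more than 20. It was 12.7% in the 207 fragments over 150 bp and 3.36% in the 1189 of 30 to 40 bp. Reads were shorter than many of the fragments, so calls of the longer ones come from their ends. Within the window the median per 200 bp step stayed between 3.35% and 4.28%. The 96 fragments in the last 100 bp of the window, up to 1000 bp from a start, had a median of 4.12% and a range of 0.345% to 68.6%. The 67 island core fragments within 100 bp outside the window had a median of 3.55% and a range of 0.255% to 20.2%.

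**Figure D2:**
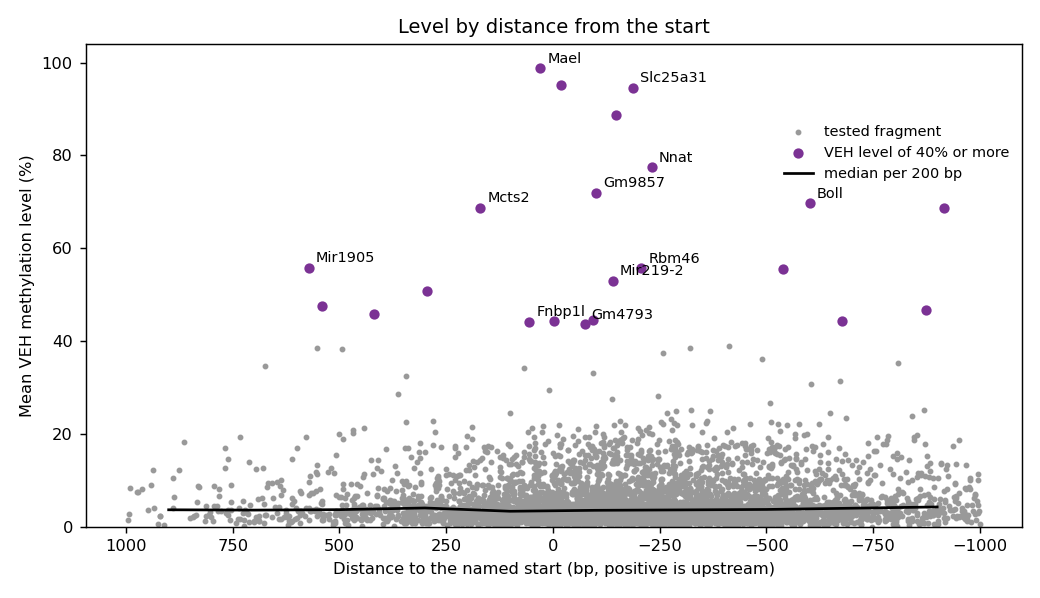
Mean VEH level in percent of each of the 5375 tested island fragments (grey points) against distance from the named start in bp, upstream on the left, with the median per 200 bp as a line. The 22 fragments at 40% or more (purple) lie on both sides of the start, while the line stays between 3.35% and 4.28%.

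Fragments upstream of the start and those at or downstream of it hardly differed. Among fragments measured in all libraries, the 1004 upstream ones were at 5.15% ± 0.295 (SD, n = 12) and the 2914 others at 5.003% ± 0.297 (SD, n = 12) in VEH. The difference of 0.148 percentage points had the same sign in 12 of 12 libraries (exact sign-flip permutation test, two-sided, p = 0.000488, the smallest it can give). Its direction depended on the weighting. With calls pooled over fragments it was -0.153, and with medians it was 0.019 (same test, p = 0.443). The sign-flip tests here and below measure agreement between libraries over the same fragments, and not the spread between fragments or islands.

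The islands at starts had the lowest mean of the 3 classes compared. In VEH they averaged 5.04% ± 0.295 (SD, n = 12), and 1025 island core fragments farther than 1000 bp from the named start averaged 6.45% ± 0.305 (SD, n = 12). The difference of -1.41 percentage points was present in 12 of 12 libraries (exact sign-flip permutation test, two-sided, p = 0.000488). The medians of these classes were 3.38% and 3.46%, and the difference lay in the upper end. In VEH 53 of 1437 tested cores away from starts, or 3.69%, reached 50%, against 14 of 5375 at starts, or 0.260%. Many of the cores away from the named start lay within 1000 bp of some other GENCODE M21 transcript start. Those 873 fragments averaged 5.18% and differed from the islands at starts by -0.142 percentage points. The 152 with no such start averaged 13.7%, a difference of -8.66. With calls pooled over fragments the difference between the classes was -12.97. Fragments within 1000 bp of a start but outside island cores averaged 9.72% ± 0.376 (SD, n = 12), a difference of -4.68 percentage points (12 of 12 libraries, exact sign-flip permutation test, two-sided, p = 0.000488), and 143 of their 2048 tested fragments, or 6.98%, reached 50%.

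The most methylated islands at starts belonged to germ cell genes. Mael, which encodes a protein of the piRNA pathway that silences transposons in the germ line, had 3 tested fragments and all were highly methylated. The fragment 30 bp upstream of its start, chr1:166238773-166238944, was at 98.7% ± 0.757 (SD, n = 12) in VEH, with a lowest, median and highest level of 97.1%, 98.8% and 99.8%. In DDT it ran from 89.0% over 98.4% to 99.0%, and the groups overlapped. The fragment over the start, chr1:166238723-166238772, was at 95.2% ± 0.797 in VEH and 95.2% ± 1.73 in DDT (SD, n = 12 each), on 446 to 6113 calls per library. The third, 147 bp downstream in coding sequence and UTR, was at 88.8% in VEH on a median of 33 calls.

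Slc25a31, which encodes the ADP/ATP carrier of the testis, had 1 tested fragment, chr3:40708976-40709043, over its UTR and coding sequence. It was at 94.6% ± 1.003 (SD, n = 12) in VEH, from 93.1% over 94.5% to 96.2%, and at 94.98% ± 1.73 (SD, n = 12) in DDT, from 93.5% over 94.8% to 100%. Both groups were uniformly high and overlapped. The highest DDT value was from DDT replicate 4 on 12 calls.

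The pair of fragments named for the predicted gene Gm9857 lay in GENCODE M21 over a UTR exon of Henmt1, which encodes the methyltransferase of piRNAs in germ cells. The one at chr3:108940343-108940441 was at 71.9% ± 12.2 (SD, n = 12) in VEH, from 40% over 76.3% to 83.3%. The adjacent one, chr3:108940442-108940563, was at 44.4% ± 12.5 (SD, n = 12). Their spread was wide, on 13 to 868 and 25 to 313 calls per library.

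Boll encodes an RNA-binding protein of the DAZ family needed for male meiosis, and its island held both low and high fragments. The 3 fragments within 136 bp of the named start were at 3.95% to 7.91% in VEH, and the 5 fragments 539 to 917 bp downstream were at 44.4% to 69.7%. The range of 65.7 percentage points was the widest of the 801 genes with 3 or more tested island fragments, for which the median range was 9.81. The CpG-dense intronic fragment printed above, chr1:55362929-55363014, was at 55.5% ± 2.56 in VEH and 55.1% ± 3.04 in DDT (SD, n = 12 each), on 634 to 16350 calls per library. RefSeq has a second Boll promoter, chr1:55362679-55362978 on the minus strand, which overlaps the methylated fragments.

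Rbm46, another germ cell RNA-binding protein, was at an intermediate level throughout. Its 8 tested fragments, from 68 bp upstream to 604 bp downstream of the start, ran from 21.9% to 55.7% in VEH. The fragment chr3:82876160-82876224, with 13 CpGs in 65 bp, was at 38.5% ± 2.41 in VEH and 40.8% ± 7.65 in DDT (SD, n = 12 each).

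**Figure D3:**
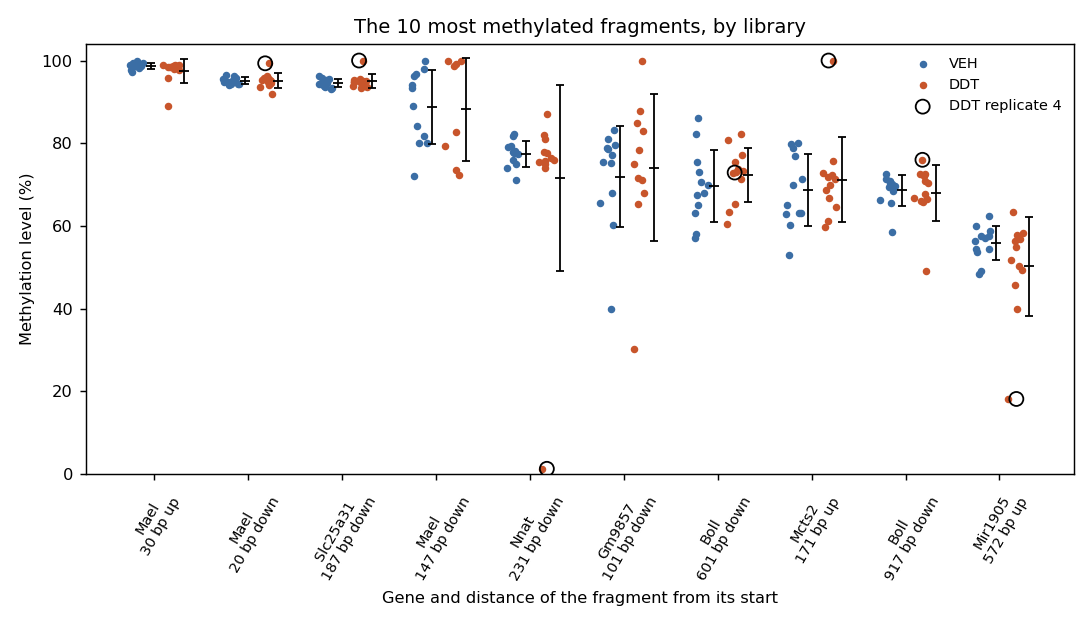
Levels in percent of the 10 island fragments at starts with the highest VEH level, 1 point per library, VEH in blue and DDT in orange, with mean ± SD beside them. DDT replicate 4 is circled where it had at least 10 calls, and the groups overlap at each of the 10 fragments.

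The imprinted genes of the list had intermediate to high levels at 3 of 4 tested fragments. Of 16 imprinted genes, 2 had island fragments at their starts, Nnat and Mcts2, with 4 tested fragments and a median VEH level of 59.7%, compared with 3.66% for all tested fragments. Nnat, which encodes the brain proteolipid neuronatin, lies in an intron of Blcap. Its fragment chr2:157560274-157560310, 231 bp downstream of the start, was at 77.5% ± 3.16 (SD, n = 12) in VEH, from 71.1% over 77.8% to 82.2%. In DDT it was at 71.6% ± 22.5 (SD, n = 12), from 1.29% over 76.1% to 87.0%. The DDT minus VEH difference was -5.84 percentage points with all libraries and 0.552 without DDT replicate 4, which was the lowest sample. The next Nnat fragment, chr2:157560311-157560476, was at 13.9% ± 2.96 (SD, n = 12) in VEH.

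Mcts2, a retrogene copy of Mcts1, lies in an intron of H13. The fragment chr2:152686854-152686978, 171 bp upstream of its start, was at 68.72% ± 8.80 (SD, n = 12) in VEH, from 53.1% over 67.5% to 80%, and at 71.2% ± 10.3 (SD, n = 12) in DDT. Its neighbour chr2:152686813-152686853, with 2 CpGs, was at 50.7% ± 3.82 in VEH and 49.0% ± 4.41 in DDT (SD, n = 12 each). At both fragments the groups overlapped.

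Intermediate levels were also found at islands named for microRNAs. The 5 tested fragments of Mir219-2, a microRNA known for its role in oligodendrocyte maturation, ran from 28.6% to 53.0% in VEH on both sides of its start. The fragment chr2:29846266-29846323, 540 bp upstream, was at 47.6% ± 3.36 (SD, n = 12) in VEH, from 41.7% over 47.7% to 53.7%. In DDT it was at 44.2% ± 10.1 (SD, n = 12), from 16.7%, in DDT replicate 4 on 30 calls, over 47.3% to 54.3%. The Mir1905 fragments lay in coding sequence of Mex3a, and the higher one, chr3:88536953-88537006, was at 55.9% ± 4.12 (SD, n = 12) in VEH.

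Single fragments could be methylated within an island that was otherwise low. At Fnbp1l, which encodes a membrane-bending adaptor, chr3:122619721-122619762 lay 55 bp upstream of the start, held 2 CpGs in 42 bp and was at 44.2% ± 5.20 (SD, n = 12) in VEH. The other 9 tested fragments of that island were at 0.530% to 7.79%. The adjacent fragment, with 16 CpGs in 90 bp, was at 7.79% ± 5.01 (SD, n = 12). Of the 70 genes with a fragment at 20% or more and another tested one, 61 also had a fragment under 10%, and 7 had all tested fragments at 20% or more. The 7 were 6330409D20Rik, Gm9857, Mael, Mcts2, Mir1905, Mir219-2 and Rbm46. The 95 fragments at 20% or more had a median length of 88 bp, 8.70 CpGs per 100 bp and 141.5 calls, and the 5280 others had 59 bp, 11.7 CpGs per 100 bp and 448 calls. Length and depth moved with the level, and their part in it was not tested.

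**Figure D4:**
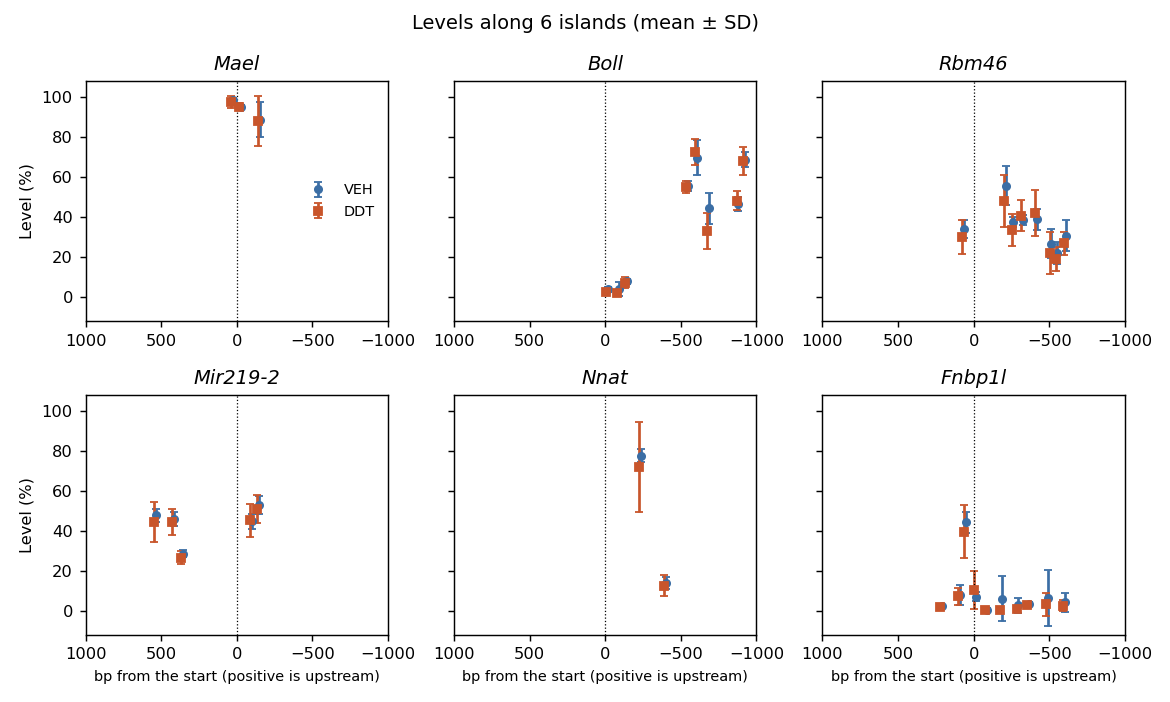
Mean level ± SD in percent of each tested island fragment of 6 genes, VEH as blue circles and DDT as orange squares, against distance from the start in bp, upstream on the left. Mael is high throughout, Boll is low at the start and high 539 to 917 bp downstream, and Fnbp1l has 1 fragment at 44.2% among low ones.

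The gene with the most tested fragments was Elf2, an ETS transcription factor, with 23, and its VEH levels ran from 0.664% to 19.9%. The highest was at chr3:51341158-51341251, with 4 CpGs in 94 bp, and the lowest at chr3:51340669-51340755, with 9 CpGs in 87 bp. The 19 fragments of Tsc22d2, a TSC22 domain protein, ran from 0.656% to 13.01%. Another 11 genes tied at 15 tested fragments. Those of Bmi1, a Polycomb protein, ran from 0.945% to 15.5%, and of the 11 only Mocs3 and Ppm1l had a fragment over 20%, with highest levels of 25.1% and 32.4%.

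Motifs were looked for in the RefSeq promoters of the same build, which span 250 bases before to 50 after a start. Symbols matched for 831 of the 1109 genes and for 8 of the 11 genes with a fragment at 40% or more. The E-box CACGTG, a palindrome that both strands share, was in the promoters of 5 of these 8 genes, namely Boll, Mael, Mcts2, Rbm46 and Slc25a31. By promoter, it was in 5 of the 9 promoters of the 8 genes. The share was 7.15% of the 32851 promoters of the genome and 10.3% of the 1007 promoters of genes with island fragments at their starts. TCCCGC, searched on both strands, was found at 5 of the 8 genes and in 5 of the 9 promoters. It was in 19.98% of promoters in the genome and in 43.0% of those of genes with island fragments. In the 61 matched promoters of genes with a fragment at 20% or more, CACGTG was in 18.03% and TCCCGC in 41.0%. GGGCGG was in 5 of the 9 promoters of the 8 genes, in 35.7% of the genome's and in 73.5% of those of genes with island fragments. CCAAT was likewise in 5 of the 9, in 37.4% of the genome's and in 33.9% of those of genes with island fragments. TATAAA was in none of the 9 promoters of the 8 genes, in 13.6% of the genome's and in 4.17% of those of genes with island fragments. The matched RefSeq promoter of Gm4793 lay outside its island. So did that of Boll at its upstream start, which is the Boll promoter that holds CACGTG. The Boll promoter that overlaps the methylated fragments had no CACGTG. These are matches of letters and not sites.

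The fragments with the largest spread between VEH libraries had few calls. Btbd3, Slc27a3, Srp9, Phtf1 and Nck2 had SDs of 26.6 to 35.0 percentage points over VEH libraries, with median calls of 14 to 25.5, and single libraries ran from 0% to 76.2% or more. Across the 5375 fragments, the SD over VEH libraries had a Spearman correlation of -0.85 with the number of calls. Values of these 5 fragments say little about their level.

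The comparison of DDT with VEH asked whether perinatal DDT moved methylation at island starts in infant BAT. A level is an average over all cells of the tissue, so a change in the mix of cells and a change within cells cannot be told apart. The mean level over the 3918 island fragments with a level in all libraries was 5.07% ± 0.719 in DDT and 5.04% ± 0.295 in VEH (SD, n = 12 each). The difference of 0.027 percentage points was smaller than the SD of either group (permutation test, two-sided, p = 0.903). Without DDT replicate 4 it was 0.093 (p = 0.694).

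No island fragment at a start had an adjusted p under 0.05 (ANOVA F test, Benjamini-Hochberg adjustment across the 20225 fragments) and the smallest was 0.869. Logistic regression (quasi-binomial) and limma each gave 0 as well. At an unadjusted p under 0.05 there were 190 of 5375, or 3.53%, against 4.18% (845 fragments) in the whole table, so the share at island starts was near the background. No island fragment had groups that did not overlap (0 of 5375), and neither had any tested fragment of the whole table (0 of 20225). By gene, 29 of 1059 promoters, 2.74% of them, had an unadjusted p under 0.05, with 7 higher and 22 lower in DDT and a smallest adjusted p of 0.887. This count was 17 without VEH replicate 1 and 50 without DDT replicate 11. Without DDT replicate 4 it was 28, with 12 higher and 16 lower.

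Of the 190 fragments, 28 were higher and 162 lower in DDT, where 1.25% of all tested fragments were higher and 2.93% lower at this threshold. The share higher was thus 14.7% (95% Wilson interval 10.4% to 20.5%), and it rested to a large part on 1 library. The interval takes fragments as independent, which they are not, since all share the same libraries and some share a promoter. Without DDT replicate 4, 188 fragments, 3.53% of those tested (4.24% in the whole table), were under the threshold. Of these 74 were higher and 114 lower, a share of 39.4%. In the whole table the share higher was 29.8% with all libraries and 42.6% (363 of 852) without DDT replicate 4. The median difference over all tested island fragments was -0.12 percentage points with DDT replicate 4 and 0.011 without it. The SD over DDT libraries exceeded that over VEH libraries at 79.9% of the fragments, and at 68.0% without DDT replicate 4. No share over the whole table was computed beside these. Whether the 68.0% rested on other single libraries was not tested.

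The 10 fragments with the smallest p were mostly at low levels and moved by few percentage points. Lower in DDT were fragments of Agfg1, Nmd3, Gm9884, AI848100, Bmp2, Boll, Hist2h3c1 and Kansl1l, and higher were those of Crtc2 and Ncoa2. Each had an adjusted p of 0.869. Agfg1 encodes a protein of vesicle transport. Its fragment chr1:82840197-82840269, 785 bp downstream of the start, ran from 1.75% over 4.69% to 9.26% in VEH and from 0% over 1.24% to 5% in DDT, with 11 of 12 DDT libraries below the VEH median (ANOVA p = 0.000401, and 0.000879 without DDT replicate 4). Nmd3 is an export adaptor of the large ribosomal subunit. Its fragment chr3:69722074-69722143 ran from 2.23% over 4.36% to 6.14% in VEH and from 0% over 2.49% to 4.19% in DDT, below the VEH median in 12 of 12 (p = 0.000612, and 0.0009 without DDT replicate 4). In both the groups overlapped.

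The fragment of Boll at chr1:55362790-55362866, in an intron, had the largest difference of the 10. It was at 44.4% ± 7.82 (SD, n = 12) in VEH, from 27.4% over 43.0% to 56.4%, and at 33.0% ± 8.95 (SD, n = 11) in DDT, from 17.6% over 35.6% to 47.1%. The difference of -11.3 percentage points had p = 0.00393 (ANOVA, adjusted p 0.869). It was -6.98 with the quasi-binomial regression, which weights libraries by their calls (p = 0.0119). Of the DDT libraries, 9 of 11 were below the VEH median, and DDT replicate 4 had no calls there. The 4 methylated fragments beside it differed by -0.552 to 2.73 percentage points, none with an unadjusted p under 0.05 (0 of 4, ANOVA).

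Bmp2 encodes a ligand of the BMP pathway that acts in brown fat differentiation. Its fragment chr2:133552331-133552362, in the UTR, was at 3.59% ± 0.654 in VEH and 2.29% ± 1.22 in DDT (SD, n = 12 each, ANOVA p = 0.00357). DDT replicates 4 and 12 were both at 0% there, on 929 and 68 calls. The difference was -1.31 percentage points with all libraries and -1.10 without DDT replicate 12. Crtc2, a coactivator of CREB, had the fragment chr3:90254262-90254292 in its UTR at 4.86% ± 0.942 (SD, n = 12) in VEH, compared with 6.51% ± 1.44 (SD, n = 11) in DDT (p = 0.0035), with 11 of 11 DDT libraries above the VEH median. Ncoa2, a coactivator of nuclear receptors, had the fragment chr1:13374242-13374280, 160 bp upstream, at 1.94% ± 0.635 in VEH and 2.95% ± 0.904 in DDT (SD, n = 12 each) (p = 0.00443), with 12 of 12 DDT libraries above the VEH median. The Ncoa2 difference was 1.01 percentage points with all libraries and 0.824 without DDT replicate 4. At each of these 3 fragments the groups overlapped.

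The other 4 of the 10 were lower in DDT with differences of -2.11 to -0.375 percentage points, at 2.13% to 5.38% in VEH. They were those of Gm9884, chr1:25829894-25829949 (p = 0.000703), AI848100, which GENCODE M21 places in a UTR of Suco (p = 0.00184, difference -2.11, and -1.41 with the quasi-binomial regression), Hist2h3c1, a histone H3 gene (p = 0.00401), and Kansl1l, chr1:66817418-66817474 (p = 0.00415). The Hist2h3c1 difference was -0.375 with all libraries and -0.301 without DDT replicate 4.

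**Figure D5:**
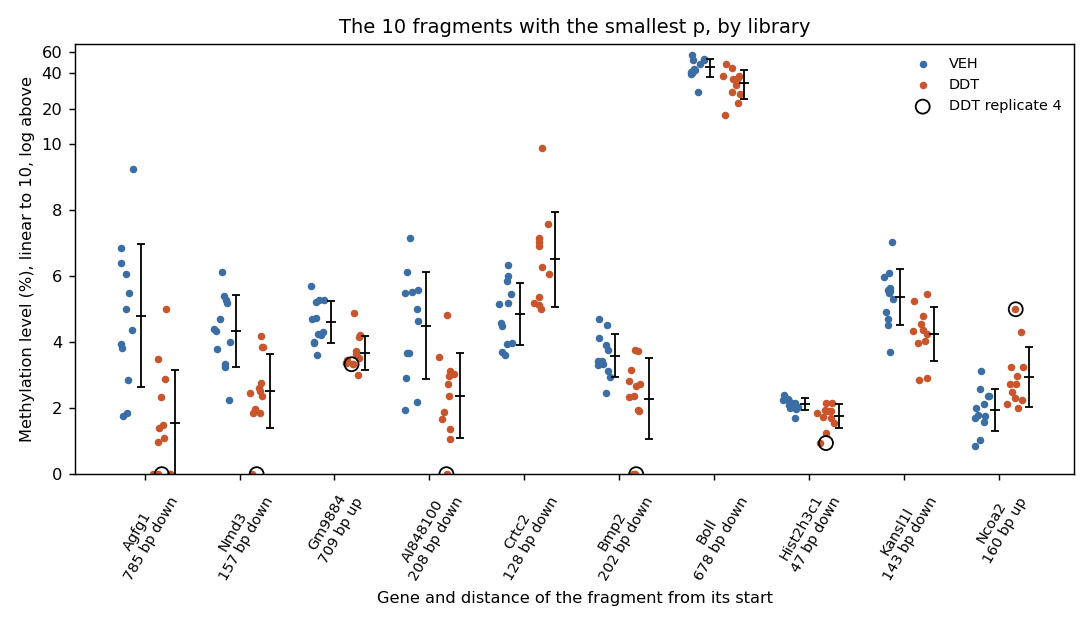
Levels in percent of the 10 island fragments at starts with the smallest p, 1 point per library, VEH in blue and DDT in orange, with mean ± SD beside them, on an axis that is linear to 10% and logarithmic above. DDT replicate 4 is circled. The groups overlap at each fragment, and 8 of the 10 are lower in DDT.

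Among the 22 fragments at 40% or more, 15 were lower and 7 higher in DDT, with a median difference of -1.48 percentage points, and 1, that of Boll, had an unadjusted p under 0.05. Among the 95 at 20% or more, 68 were lower, and the median difference was -2.04 (-1.33 without DDT replicate 4). Of these 95, 6, or 6.32%, were under that threshold, all lower, against 4.18% in the whole table. Both sets were chosen by their VEH level, and such a choice by itself favours lower values in DDT. The counts and medians are therefore no test of DDT.

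The lists of genes below were described by their counts, to be read against the 4.18% of all tested fragments and the 3.53% of island fragments at starts with an unadjusted p under 0.05. In the germ cell list, 6 of 87 genes had 26 tested fragments, with a median VEH level of 7.62% and 10 fragments at 20% or more. They ran from 0.641% at Catsper2, a sperm ion channel subunit whose fragment lay over an exon of Pdia3, to the 98.7% of Mael. The 2 with an unadjusted p under 0.05 were both of Boll and lower in DDT, and there were 4 without DDT replicate 12. In the imprinted list there were none (0 of 4).

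Developmental transcription factors, whose islands are often Polycomb targets, were close to other genes. Their 182 tested fragments at 31 genes had a median VEH level of 3.97%. The lowest was 0.411% at Insm1 and the highest 23.97% at Hoxd1, on a median of 14 calls. At an unadjusted p under 0.05 there were 7, all lower in DDT, or 3.85% of the 182 against the 4.18% of the whole table. The smallest p was at Sox13, chr1:133423404-133423434, at 2.63% ± 0.358 in VEH and 1.82% ± 0.916 in DDT (SD, n = 12 each) (ANOVA p = 0.00952, and 0.0148 without DDT replicate 4, which was at 0%).

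Genes of energy metabolism had low levels at their island starts. The mitochondrial list, 15 genes with 50 tested fragments, had a median VEH level of 4.51%, from 1.09% at Idh1 to 16.5% at Cox5b, a subunit of cytochrome c oxidase. Cox5b was at 95.5% in DDT replicate 4 and from 9.59% to 20.8% in VEH. Of the 50 fragments 4 had an unadjusted p under 0.05, those of Ndufa10, Pdss1 and Atp5g3, lower in DDT, and that of Mrpl30, higher, named after their values were seen, where 4.18% of all tested fragments passed this threshold. There were 5 without DDT replicate 4 and 3 without VEH replicate 8. The lipid and brown fat list, 17 genes with 103 tested fragments, had a median of 3.28%. It ran from 0% in every measured VEH library at Cebpb, a transcription factor of adipocyte differentiation, on a median of 28.5 calls, to 19.05% at Acvr1, a BMP receptor. The 5 under the threshold, all lower in DDT, were the Bmp2 fragment, 3 of Acvr1 and 1 of Lpgat1. There were 2 without DDT replicate 2 or DDT replicate 4, and 3 without VEH replicate 2, 3, 6 or 8. The mTOR list, 10 genes with 54 tested fragments, had a median of 3.84%, with 0% in VEH at Cab39 on a median of 14.5 calls and 17.3% at Irs1. Its only fragment under the threshold was of Eif4e2, a cap-binding protein, at 2.93% ± 0.358 in VEH and 2.21% ± 0.903 in DDT (SD, n = 12 each) (ANOVA p = 0.0172), and there were 2 without VEH replicate 5, DDT replicate 11 or DDT replicate 12.

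The remaining lists held few genes, and their counts are again to be read against the 4.18% of all tested fragments. The ribosomal protein list had 6 genes with 26 tested fragments, a median VEH level of 5.03% and a range from 0.617% at Rpl22l1 to 19.3% at Rpl37a. Its 4 fragments under the threshold were of Rpl7 and Rpl31, 3 lower and 1 higher in DDT. There was 1 without VEH replicate 7, and there were 2 without VEH replicate 6 or 9 or DDT replicate 1, 4, 5, 6 or 7. The higher one, chr1:39368426-39368521 in an intron of Rpl31, was at 5.20% ± 4.42 in VEH and 10.7% ± 6.04 in DDT (SD, n = 11 each), on a median of 32 calls (ANOVA p = 0.0239). The steroid hormone and taurine list had 4 genes with 22 tested fragments and a median of 4.003%, from 0.901% to 16.4%, both at Creb1. Its fragment under the threshold was of Hsd17b7, an enzyme of estradiol and cholesterol synthesis, at 1.08% ± 1.02 in VEH and 0.445% ± 0.227 in DDT (SD, n = 12 each) (ANOVA p = 0.046, and 0.0675 without DDT replicate 4). With 1 library left out the list had from 0 to 3 under the threshold, with 0 without VEH replicate 7, 9 or 12 or any of DDT replicates 1 to 7, 2 without VEH replicate 1 or 8 or DDT replicate 8, and 3 without DDT replicate 11. The xenobiotic and redox list had 4 genes with 17 tested fragments and a median of 3.12%, from 0.602% at Nfe2l2, the regulator of antioxidant genes, to 10.5% at Cyp20a1, and none was under the threshold (0 of 17, smallest p 0.144 at Srxn1). The list of markers of other cell types had 3 genes, Sox17, Sox18 and Syt2, with 6 tested fragments at 2.46% to 19.3% in VEH, none under the threshold (0 of 6). The study lists genes as differentially methylated in BAT of infant mice exposed to DDT. Its regions in these genes need not be island fragments at starts, so the counts here do not repeat its calls. Of 5 such genes in the list used here, 4 had 19 tested island fragments, 3 of Anp32e, 8 of Elk4, 7 of Pex5l and 1 of Psma5. They ran from 0.304% at Elk4 to 15.1% at Psma5 in VEH, the latter on a median of 15 calls, and none had an unadjusted p under 0.05 (0 of 19, smallest p 0.0823 at Anp32e). Without DDT replicate 4, which was at 0% on 24 calls there, 1 fragment of Elk4, chr1:132007463-132007508, had p = 0.0194 (ANOVA, VEH 2.38% and DDT 2.96% with all libraries). The list also had 1 fragment under the threshold without VEH replicate 4, VEH replicate 5 or DDT replicate 2.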

How the data were processed

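The authors trimmed the reads, aligned them to GRCm38 with Bismark 0.15.0 and Bowtie 2, summed CpG calls per MspI fragment and deposited, without normalization, counts of methylated and not methylated calls for each library, with an annotation of gene, distance and CpG island class whose release is not given in the sources used here. The table analysed here stops within chromosome 3. From the counts, the level was computed as a percent for libraries with 10 or more calls, and fragments with 8 or more such libraries per group were tested with the ANOVA F test of the study's methods over the whole table, adjusted by Benjamini-Hochberg, at a threshold of 0.05. Two-sided permutation tests were used for single values (100000 resamples), and for classes of fragments within VEH libraries with exact sign-flip tests (4096 flips). For promoters, the calls of a gene's island fragments were summed.

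The fragments, the gene lists and the rule for named fragments were chosen with earlier results of these data known. Named were the 10 fragments with the smallest p, the 10 with the highest VEH level and the 5 nearest 50%, the 5 with the largest SD, the genes with the most fragments, the extremes of each list and the genes the study lists for infant mice. Genes and levels of other fragments of the islands at 40% or more were added after their values were seen. Places in exons, introns and UTRs are from GENCODE M21, and sequences and promoters from RefSeq (GRCm38.p6). The labels give no batch, but the library number of DDT replicate 12 does not run on from those of the others. Its share of calls in island fragments at starts, 44.6%, was second to the 46.4% of DDT replicate 4. Whether it was processed apart was not tested. The replicate numbers gave no clear sign of pairing: deviations from the group means of same-numbered libraries correlated from -0.18 to 0.20, over 0.1 in 3 of 12 pairs. Such weak correlations at fragments near 0% cannot exclude a pairing. The smallest mean chi-square per fragment of any pair of libraries was 1.71. It takes calls as independent, and calls of the same read or of PCR copies are not. The value therefore cannot tell whether 2 libraries share a sample. Alternatives were a quasi-binomial regression, limma on log2((methylated + 1) / (not methylated + 1)), minimums of 5 and 20 calls, levels in all 24 libraries, a depth covariate, a replicate block, each library left out, a 500 bp window and GENCODE starts. Splitting the cores away from starts by GENCODE starts was added after seeing the data. The tests were tested on simulated data. Python 3.11.15, NumPy 2.4.6, pandas 2.3.3, SciPy 1.17.1, matplotlib 3.10.9, R 4.3.3 and limma 3.58.1 were used.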

Additional observations from a re-analysis of the deposited data

How the results depend on the processing

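No alternative, and no fit with 1 of the 24 libraries left out, gave an island fragment with an adjusted p under 0.05 (0 in each). The count at an unadjusted p under 0.05, 190, ran from 153 (without VEH replicate 12) to 263 (without DDT replicate 11) with 1 library left out and was 420 with the quasi-binomial regression, which also called more of the whole table (7.72%). The share of these that were higher in DDT, 14.7%, was 26.7% with the quasi-binomial regression, 23.1% with limma and 8.97% with levels in all 24 libraries, and with 1 library left out it lay between 9.51% (DDT replicate 11) and 39.4% (DDT replicate 4). With the replicate block, which rests on the shared number, 190 fragments had an unadjusted p under 0.05, 133 of them shared with the fit without it. Of the 190, 17.4% were higher in DDT. Among VEH libraries, 1 of 12 correlated best with its own number. The block gave 30 promoters and a p of 0.925 for the mean level. The count of 29 promoters ran from 17 (without VEH replicate 1) to 50 (without DDT replicate 11) with 1 library left out. The difference in mean level, 0.027 percentage points, ran from -0.107 to 0.101 with 1 library left out, with permutation p of 0.562 or more, and was -0.073 with pooled calls (p = 0.521). The difference between upstream and other fragments was 0.019 with medians (p = 0.443) and -0.153 with pooled calls. The differences from the other classes kept their direction in each alternative. Of the 10 named fragments, Crtc2 with a minimum of 5 calls (p = 0.139) and Gm9884 with limma (p = 0.0629) lost an unadjusted p under 0.05, and none changed direction in the alternatives run. Counts at an unadjusted p under 0.05 within the gene lists were small in number. Among these counts and the VEH levels of the 10 most methylated fragments, 60 values moved over the alternatives run. A count moved if it changed by over 1.5 times or to or from 0, and a level if it changed by over 1 SD. Fragments with few calls limit what can be seen: their median SD over VEH libraries was 6.25 percentage points at up to 50 calls and 0.548 at over 1000.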
